A study of Arabidopsis thaliana with 12 samples.

Results

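The salt response of Col-0 Arabidopsis thaliana seedlings was measured by comparing 3 mRNA libraries taken after 60 min in liquid medium with 150 mM NaCl with 3 libraries taken at 0 min, 6 of the 12 libraries of the study. Col-0 is the common laboratory accession. Seeds were kept cold for 3 days, seedlings grew for 5 days on 1x MS agar under days of 16 h light with 8 h of dark at 22 °C, and seedlings were moved to 1x MS liquid medium for 30 min before the salt was given. The other 6 libraries came from dcp5-1, which carries a mutant allele of DCP5 (a decapping factor), at the same 2 times with 3 libraries each, and they enter here for the estimate of the spread and for 1 comparison at the end. The labels name no 60 min group without salt, so salt and a further 60 min in liquid cannot be told apart, and the clock time of harvest is not given in the sources used here. The labels do not say whether replicates were separate cultures, so p-values cover only the scatter of these libraries, part of which may be technical.

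The deposited values are FPKM, fragments scaled to transcript length and to the mapped fragments of the library. Loci entered the comparison when their mean over the 12 libraries was at least 1 FPKM, which held for 19876 of 38088 loci in the table, 18708 of them nuclear and protein-coding. Low values fell on whole multiples of 1 read, which gave the depth of the 6 Col-0 libraries. It was 14540000 to 16870000 reads at 0 min and 20120000 to 21030000 reads at 60 min. Every 60 min library was thus deeper than every 0 min library. Across loci tested, log2 values correlated at r = 0.957 to 0.968 between Col-0 replicates and at 0.875 to 0.891 between the times, a description across genes of the same libraries. The median SD of log2 values among replicates was 0.12 at 0 min and 0.0783 at 60 min. Genes of the shoot and of the root marker list were both detected. The antenna gene LHCB3 stood at 2991 ± 268 FPKM and the endodermis gene SCR of the root list at 11.1 ± 0.417 FPKM at 0 min (mean ± SD, n = 3). Of 8 genes on the root list 5 reached the 1 FPKM minimum, and the share of root RNA was not tested.

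Salt around a root withdraws water from cells and brings in sodium. Plants answer within minutes with calcium signals and with the hormone abscisic acid (ABA), which is cut from carotenoids in plastids and finished in the cytosol. ABA bound to PYR/PYL receptors blocks clade A protein phosphatases, which frees SnRK2 kinases to phosphorylate bZIP factors of the ABF group. These bind ABA-responsive elements (ABRE) in promoters, while DREB factors bind dehydration-responsive elements (DRE). The known targets include dehydrins and other hydrophilic proteins, osmolyte enzymes and wax genes.

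The promoters of 4 genes are shown because they hold repeated copies of letters whose shares among promoters are given below. They are the 300 bases before the annotated gene start in the TAIR10.1 assembly (sequence from RefSeq), written 5′ to 3′ in the direction of the gene, and were chosen after fold changes and motif counts were known. RD29A (LTI78 in the annotation, AT5G52310, chr5:21240417-21240716, plus strand) and RD29B (LTI65, AT5G52300, chr5:21236721-21237020, plus strand) are neighbours on chromosome 5 and encode hydrophilic stress proteins. PUB19 (AT1G60190, chr1:22197966-22198265, plus strand) encodes a U-box ubiquitin ligase of drought signalling. In these 3 promoters capitals mark ACGTG, the core of the ABRE, and CCGAC, the core of the DRE, on either strand. TCH2 (AT5G37770, chr5:14999620-14999919, minus strand) encodes a touch-induced calmodulin-like protein, and capitals mark CGCGTT, the rapid stress response element, on either strand.
RD29A: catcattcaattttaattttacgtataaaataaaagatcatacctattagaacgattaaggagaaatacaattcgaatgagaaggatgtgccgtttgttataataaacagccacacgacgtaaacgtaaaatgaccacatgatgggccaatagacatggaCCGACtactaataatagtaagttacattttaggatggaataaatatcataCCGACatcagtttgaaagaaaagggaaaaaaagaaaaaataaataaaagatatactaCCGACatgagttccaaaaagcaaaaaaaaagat
RD29B: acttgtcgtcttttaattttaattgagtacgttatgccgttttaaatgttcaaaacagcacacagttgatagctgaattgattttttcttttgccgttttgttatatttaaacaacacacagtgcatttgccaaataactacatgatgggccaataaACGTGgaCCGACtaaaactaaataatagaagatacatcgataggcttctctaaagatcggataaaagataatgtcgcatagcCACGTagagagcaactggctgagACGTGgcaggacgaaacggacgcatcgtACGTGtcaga
PUB19: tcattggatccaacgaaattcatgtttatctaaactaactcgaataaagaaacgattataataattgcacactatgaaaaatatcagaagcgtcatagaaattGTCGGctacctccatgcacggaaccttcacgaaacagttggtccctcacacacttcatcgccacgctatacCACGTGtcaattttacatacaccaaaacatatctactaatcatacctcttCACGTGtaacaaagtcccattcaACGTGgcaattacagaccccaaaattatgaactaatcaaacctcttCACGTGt
TCH2: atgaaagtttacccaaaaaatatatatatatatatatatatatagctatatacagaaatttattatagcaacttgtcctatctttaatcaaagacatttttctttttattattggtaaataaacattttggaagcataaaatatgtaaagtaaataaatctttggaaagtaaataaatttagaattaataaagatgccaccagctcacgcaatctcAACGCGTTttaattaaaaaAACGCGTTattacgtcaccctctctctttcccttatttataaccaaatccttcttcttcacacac
The RD29A window holds 3 DRE cores and no ABRE core. RD29B holds 4 ABRE cores and 1 DRE core, and PUB19 holds 7 ABRE matches, of which 6 are the 2 strands of 3 palindromes, and 1 DRE core. TCH2 holds 4 matches, which are the 2 strands of 2 palindromes. Such repeats, 2 or more matches on either strand, stood in a minority of promoters. Of 41 promoters of genes that rose by 3 or more log2 units, 36.6% repeated the ABRE core and 7.32% the DRE core. The shares over all 27429 promoters were 9.93% and 1.84%. Of 93 promoters of genes that fell by 3 or more, 1 repeated the rapid stress response element (1.08%, beside 0.365% of all promoters). That 1 promoter was the one of TCH2, shown here. A match is a description of letters and shows no binding. Letters further upstream or after the annotated gene start were not read, so a core absent from a window may stand outside it.

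Most of the transcriptome moved, so each group below has to be read against that background. At an adjusted p below 0.05 (limma on log2(FPKM + 1), Benjamini-Hochberg over 19876 loci), 7223 loci (36.3%) were higher and 7092 (35.7%) lower at 60 min, 72.0% in all, and the 3 and 3 libraries of 14582 loci (73.4%) did not overlap. Most changes were small: 6180 of the rises and 4960 of the falls were under 1 log2 unit. A rise of at least 1 log2 unit was called for 1043 loci (5.25%) and a fall of at least 1 for 2132 (10.7%). At the far ends, 11 loci rose and 35 fell by at least 4 log2 units. The share of rises among the changes of at least 1 log2 unit was 32.9%, and 45.7% with upper quartile scaling, which moves the median of all loci from 0.01 to 0.13. In RNA from seedlings as a whole, fewer cells of a type and less RNA per cell cannot be told apart. For weakly expressed genes this scale understates the change.

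**Figure D1:**
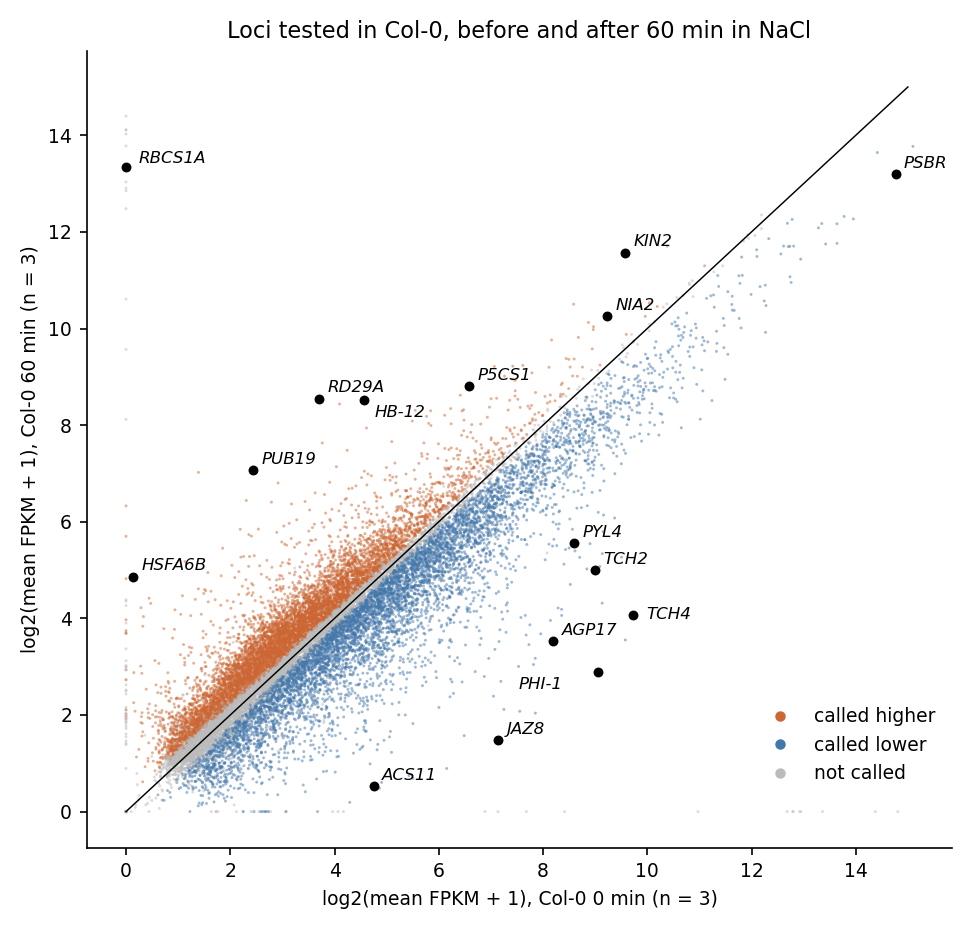
Mean FPKM of the loci tested in Col-0 at 60 min (vertical axis) against 0 min (horizontal axis), each as log2(mean FPKM + 1) over 3 libraries; orange points were called higher, blue lower and grey not called, 16 genes are named in black and the line marks equal values. RD29A, PUB19 and HSFA6B lie far above the line, PHI-1, TCH4 and JAZ8 far below it, and RBCS1A stands on the left edge because it is listed at 0 in the 0 min libraries; loci with a mean over 40000 FPKM at either time are not drawn.

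The transcript for the first committed step of ABA synthesis rose. NCED3, whose enzyme cleaves the carotenoid precursor, read 2.71, 4.56 and 3.43 FPKM in the 0 min libraries and 57.1, 57.5 and 54.8 FPKM in the 60 min libraries. Every 60 min value was above every 0 min value (log2 fold change 3.67, SE 0.11, limma adjusted p = 1.16e-10). Its relatives NCED2, NCED5, NCED6 and NCED9 stayed under the 1 FPKM minimum, so NCED3 (chromosome 3) was the 1 member of 5 tested. ABA1, which makes the epoxidised carotenoids upstream, read 90.3, 89.2 and 85.1 FPKM and then 237, 226 and 243 FPKM. AAO3, the oxidase of the last step, read 3.99, 4.14 and 4.13 FPKM and then 14.4, 13.7 and 13.5 FPKM. The groups did not overlap for either gene (log2 fold changes 1.40 and 1.55). BGLU18, which frees ABA from its stored glucose ester, rose as well (log2 fold change 1.63), whereas ABA2, the cytosolic dehydrogenase between these steps, was lower (-0.38, limma adjusted p = 0.0117), a call lost with upper quartile scaling (-0.26, limma adjusted p = 0.0612) and once the length trend described below was removed (-0.09, limma adjusted p = 0.53), and ABA4 was not called. In all, 5 of 7 tested synthesis genes were higher and 1 lower, with a median of 1.40 beside 0.01 over all loci. With the length trend removed 4 were higher and none lower (median 0.91).

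Transcripts of ABA breakdown mostly went down. CYP707A3, a hydroxylase that starts ABA catabolism, read 38.1, 39.2 and 39.8 FPKM at 0 min and 7.36, 8.3 and 6.99 FPKM at 60 min, without overlap (log2 fold change -2.23, limma adjusted p = 5.63e-11). CYP707A1 of the same enzyme family was lower by less (-0.38), and so was UGT71C5, which conjugates ABA to glucose (-0.51). The exception was CYP707A2, the hydroxylase known from seeds, with 0.706, 0.634 and 0.938 FPKM at 0 min and 5.05, 4.22 and 4.48 FPKM at 60 min (log2 fold change 1.67, limma adjusted p = 8.43e-08). Thus 3 of 4 tested breakdown genes were lower and 1 was higher. The exporter gene ABCG25 rose from 10.7 ± 0.944 to 24.3 ± 1.67 FPKM (mean ± SD, n = 3), and 3 of 5 tested transport genes were higher with none lower; their median turned from 0.18 to -0.17 when a trend with transcript length was removed.

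Most receptor genes fell, while the phosphatases they block rose. PYL4 read 330.0, 436 and 387 FPKM at 0 min and 42.5, 51.4 and 44.8 FPKM at 60 min. PYL5 read 300.1, 389.8 and 322 FPKM and then 36.6, 33.8 and 31 FPKM. For both receptor genes the lowest 0 min library was several times above the highest 60 min library (log2 fold changes -3.02 and -3.27). PYL6, PYL1 and PYR1 fell by 2.22, 1.88 and 1.77 log2 units, and PYL2 and PYL8 by less. The receptor genes PYL7 and PYL9 rose instead, PYL7 from 8.7 ± 1.32 to 45.5 ± 1.7 FPKM and PYL9 from 13 ± 0.725 to 30.7 ± 0.814 FPKM. Of 9 tested receptor genes 7 were lower and 2 higher (median -1.77).

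All 8 tested clade A phosphatases, which hold ABA signalling off, were higher (median 2.58). ABI1 read 13, 12.3 and 12.6 FPKM at 0 min and 199, 191 and 202 FPKM at 60 min (log2 fold change 3.87, SE 0.0414, limma adjusted p = 7.64e-14). HAI1 read 10.3, 17.7 and 14 FPKM and then 116, 109 and 110.4 FPKM. In both, the replicates lay close together beside the distance between the times. HAI2, near the detection floor at 0 min with 0.359, 0.0417 and 0.381 FPKM, read 15.1, 16 and 15.1 FPKM at 60 min. HAI3 read 0.287, 0.111 and 0.305 FPKM and then 6.78, 6.63 and 5.38 FPKM. The members with the highest levels at 0 min, HAB1, HAB2 and PP2CA, rose least (1.59, 1.46 and 1.74). By level per length, PP2CA and HAB1 were the highest phosphatase transcripts at 0 min (49.9 and 48.1 FPKM) and ABI1 the highest at 60 min (197 FPKM).

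Most SnRK2 kinase transcripts changed by less than 1 log2 unit. OST1, the kinase of stomatal ABA signalling, read 26.5, 24.7 and 22.9 FPKM at 0 min and 20.9, 20.1 and 22.1 FPKM at 60 min, a fall of 0.22 log2 units (limma adjusted p = 0.00661) that was not called with upper quartile scaling (-0.09, limma adjusted p = 0.238). SNRK2.2 was not called (log2 fold change -0.12) and SNRK2.3 was higher (0.73). Only SNRK2.9, a weakly expressed member, passed 1 log2 unit among the 10 tested, from 0.777 ± 0.315 to 3.11 ± 0.212 FPKM. The counts were 6 higher, 2 lower and 2 not called. The bZIP factors downstream went up: 7 of 8 tested were higher and none lower (median 1.52). ABF2 read 13.7, 12.3 and 13.7 FPKM and then 72.2, 68.1 and 74.1 FPKM. ABF4 read 11.6, 8.61 and 11.7 FPKM and then 46, 47.6 and 50.5 FPKM, and GBF3, which binds G-boxes, read 22.2, 21.5 and 22.1 FPKM and then 119, 117 and 122 FPKM. None of the 3 overlapped between the times (log2 fold changes 2.35, 2.09 and 2.4). ABI5, known from seed germination, reached 2.52 ± 0.0475 FPKM, and AREB3 was not called.

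**Figure D2:**
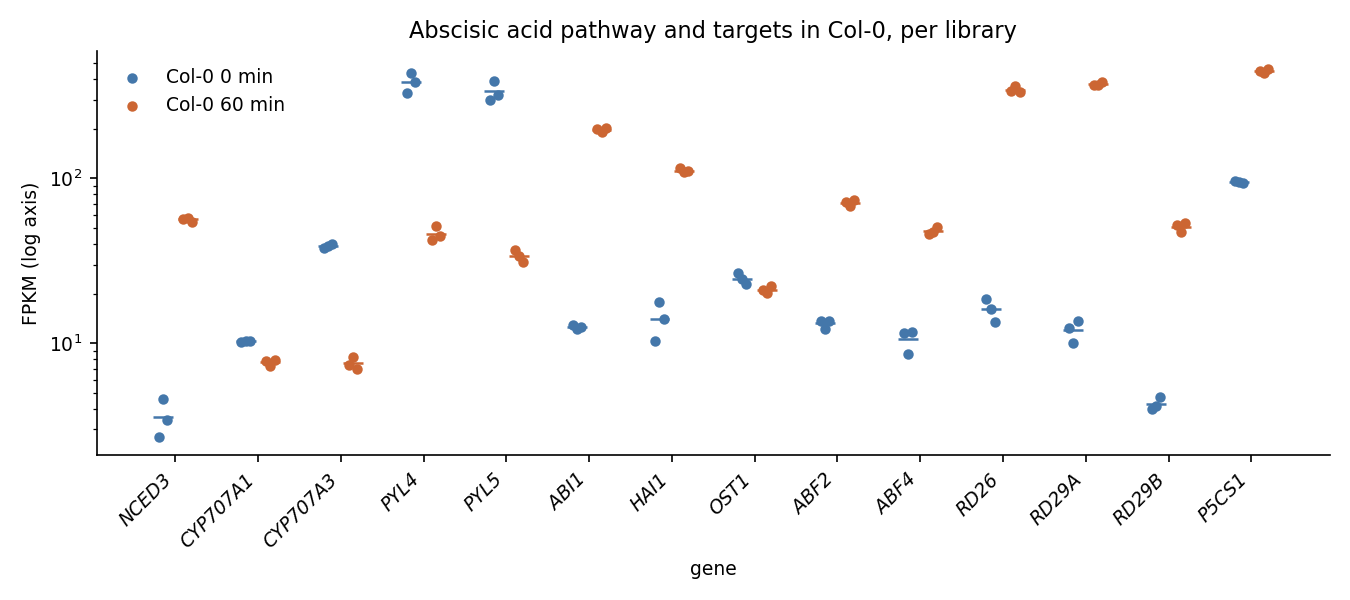
FPKM of 14 genes of ABA synthesis, breakdown, signalling and response (horizontal axis) on a log axis, with 1 point per Col-0 library and a bar at the mean of 3 libraries, blue at 0 min and orange at 60 min. The 2 times are apart for each gene, with CYP707A1, CYP707A3, PYL4, PYL5 and OST1 lower at 60 min and the other 9 higher.

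Transcription factors of water stress were among the large rises. RD26, a NAC factor of ABA signalling, and its relative NAC019 rose by 4.35 and 3.31 log2 units. NAP, a NAC factor of leaf senescence, read 3.44, 3.73 and 4.68 FPKM at 0 min and 85.3, 87.2 and 85.1 FPKM at 60 min (log2 fold change 4.14, limma adjusted p = 1.1e-10). ATAF1 went from 56.7 ± 5.94 to 253 ± 10.3 FPKM. Of 11 NAC factors on the list 7 were higher, by 1.75 to 4.35 log2 units, 3 were lower and 1 was not called. HB-12, a homeodomain factor induced by water deficit, read 24.6, 22.6 and 20.5 FPKM at 0 min and 352, 379.6 and 366 FPKM at 60 min. Its close relative HB-7 read 45.6, 44.2 and 47.7 FPKM and then 307, 324 and 316 FPKM, and neither overlapped between the times. HB6, a negative regulator of ABA responses, rose by 1.75 log2 units, while HB-1 was lower (-1.04). HB21, a bud dormancy factor, went from 0.214 ± 0.133 to 7.06 ± 1.03 FPKM, and 6 of 9 tested HD-Zip I genes were higher and 2 lower.

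Among MYB factors the list split in its directions. MYB41, a factor of suberin and cuticle, read 1.12, 0.632 and 0.966 FPKM and then 13.4, 12 and 12.6 FPKM. MYB74, MYB49 and MYB102, close relatives of it, rose by 2.46, 2.45 and 1.90 log2 units. By contrast MYB70, MYB77 and MYBR1 (MYB44), which form another subgroup, were lower (-2.33, -2.07 and -1.18), and 7 of 14 tested were higher, 6 lower and 1 not called. MYB121, under 1 FPKM in every 0 min library, read 18.3, 17.1 and 17.6 FPKM at 60 min, and MYB305, also under 1 FPKM before, read 19.6, 18.7 and 18.2 FPKM. Of the heat shock factors, HSFA6A read 1.18, 1.38 and 1.02 FPKM and then 35, 34.6 and 35.8 FPKM, and HSFA6B rose from under 1 FPKM in each library to 29.6, 27.1 and 27.8 FPKM. HSFA2, the factor that rises in heat, was not called, with 1.08, 0.7 and 0.892 FPKM and then 0.544, 0.511 and 0.733 FPKM (limma adjusted p = 0.0898, and 0.0372 with a pseudocount of 0.1), and HSFA3 was lower (-1.56). In all, 6 of 11 heat shock factors were higher and 4 lower.

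The CBF and DREB factors changed in both directions. DREB2A, a factor of drought and heat responses, read 6.87, 6.85 and 7.74 FPKM at 0 min and 58.6, 57.8 and 61.3 FPKM at 60 min (log2 fold change 2.89, limma adjusted p = 1.22e-11). The cold factor gene CBF1 read 0.862, 1.15 and 1.44 FPKM and then 10.3, 9.6 and 10.1 FPKM, and CBF3 (DREB1A) read 0.156, 0.0606 and 0.111 FPKM and then 6.42, 6.54 and 6.08 FPKM, both without overlap. Their neighbour CBF2 was far more abundant at 0 min, with 37.2, 49.99 and 39.8 FPKM, and ended at 34.8, 35.7 and 31.1 FPKM (log2 fold change -0.31, limma adjusted p = 0.0488). The CBF2 call was lost in 13 alternatives, and with the length trend described below removed its value was 0.16. The 3 genes are close copies in tandem, and how the authors' program assigned shared reads is not given in the sources used here. DDF1 and DDF2, relatives of the CBF genes that restrain growth when overexpressed, fell: DDF2 read 14.6, 24.4 and 16.8 FPKM at 0 min and under 1 FPKM in each 60 min library. DREB26 fell by 5.48 log2 units. In this list 6 of 11 tested were higher and 4 lower. The C2H2 zinc finger factors mostly went down, with 9 of 11 lower and 2 higher (median -1.14), and 7 lower and 2 higher with the length trend removed (median -0.67). ZAT10 (STZ) read 115, 129 and 121 FPKM and then 35.8, 37.1 and 32.3 FPKM, and ZAT12 (RHL41) 35.5, 38.9 and 41.6 FPKM and then 16.2, 17.2 and 17.7 FPKM, both without overlap. ZAT6 and ZF2, also repressors of this class, rose by 2.04 and 1.18 log2 units.

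**Figure D3:**
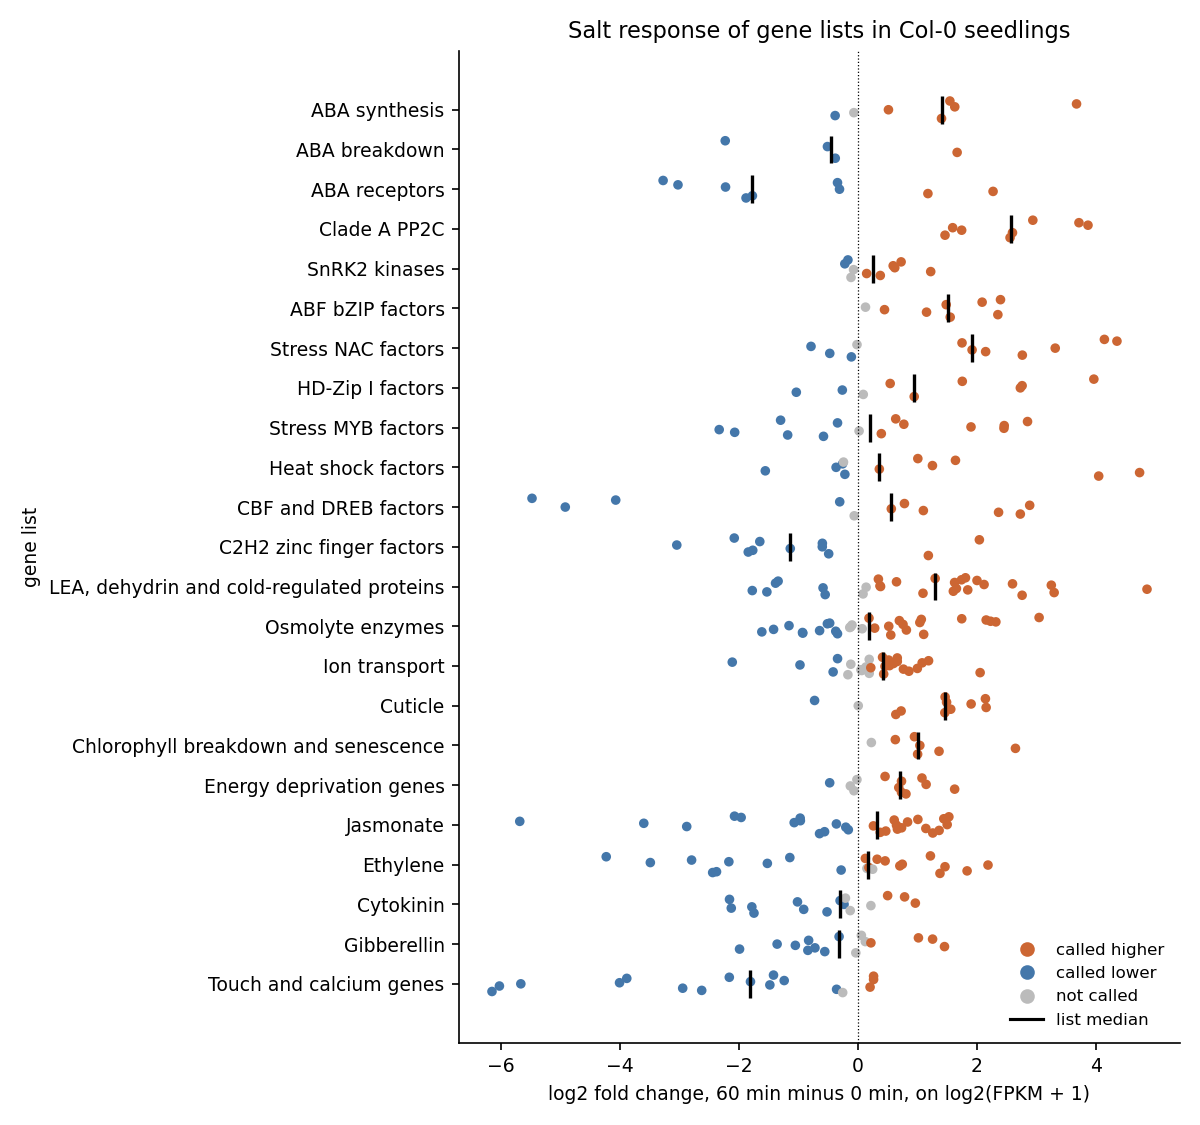
Log2 fold change at 60 min against 0 min in Col-0 (horizontal axis) of the tested members of 23 gene lists (vertical axis), with 1 point per gene, orange when called higher, blue when called lower and grey when not called, and a black bar at the median of each list. The clade A PP2C points are all to the right of 0, and the ABA receptors and the touch and calcium genes lie mostly to the left.

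Genes of protective proteins rose as a rule, but not all of them. In the list of LEA proteins, dehydrins and cold-regulated proteins, which keep membranes and proteins intact when water is short, 19 of 27 tested were higher, 6 lower and 2 not called (median 1.30). The RD29A window shown above holds 3 DRE cores. RD29A read 12.3, 10.1 and 13.6 FPKM at 0 min and 368, 367 and 384 FPKM at 60 min (log2 fold change 4.86, SE 0.0828, limma adjusted p = 1.68e-12). Its neighbour RD29B, with 4 ABRE cores and 1 DRE core in its window, read 3.99, 4.18 and 4.73 FPKM at 0 min and 52.3, 47.1 and 53.8 FPKM at 60 min. COR15A, which protects chloroplast membranes, read 14.4, 19.4 and 19.98 FPKM and then 188, 173 and 171 FPKM. RD20, a caleosin of lipid droplets, read 12.8, 11.9 and 14.3 FPKM and then 91.7, 94.1 and 94.9 FPKM, and the times did not overlap in any of them (log2 fold changes 3.3 for RD29B, 3.25 for COR15A and 2.76 for RD20). The dehydrin genes ERD10, COR47 and LTI30 were already abundant and rose by 1.6, 1.30 and 1.62 log2 units. KIN2 gained more FPKM than any other called gene with a symbol except RBCS1A, from 715, 859.7 and 707 FPKM to 3226, 3092 and 2801 FPKM; its tandem copy KIN1 is close in sequence, so reads may have been split between them. RAB18, a dehydrin named for its response to ABA, read 182, 187 and 174 FPKM and then 118, 131 and 121 FPKM, a fall of 0.55 log2 units without overlap, not called with quantile normalization (-0.05, limma adjusted p = 0.433). Other members that went down were SAG21, a mitochondrial LEA protein gene (1128 ± 115 to 444 ± 29.98 FPKM), DI21 (-1.78), the seed gene EM6 (-1.53) and the lipid transfer protein genes LTP4 (-1.38) and LTP3 (-0.59), close copies. The summed FPKM of the 27 genes was 0.44% to 0.473% of that of all nuclear protein-coding loci in the 0 min libraries and 1.15% to 1.33% in the 60 min libraries.

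Osmolyte genes changed gene by gene. P5CS1, which makes the first intermediate of proline, read 96.1, 94.6 and 93.4 FPKM at 0 min and 449, 434 and 461 FPKM at 60 min, without overlap (log2 fold change 2.23, SE 0.0398, limma adjusted p = 2.7e-12). P5CR, the next enzyme, went the other way, with 70.1, 84.9 and 76.2 FPKM and then 34.7, 33.8 and 33.2 FPKM. ERD5, the proline dehydrogenase gene of proline breakdown, was lower by 0.34 log2 units, and 5 of 8 proline genes were lower and 3 higher. Most transcripts of raffinose synthesis rose. GolS2, a galactinol synthase, read 2.76, 4.03 and 4.54 FPKM and then 37.8, 37.2 and 38.7 FPKM. SIP1, a raffinose synthase, read 5.02, 4.98 and 5.13 FPKM and then 31.2, 27.5 and 28.9 FPKM. GolS3 and GolS4 rose from under 1 to 4.79 ± 0.622 and 3.13 ± 0.288 FPKM, and GolS1, known from heat, was not called. Of 6 tested raffinose genes 4 were higher and 1 lower (median 1.95). That median was 1.11 with a minimum of 5 FPKM and 2.91 with a pseudocount of 0.1. The starch-degrading enzymes BAM1 and AMY3 rose by 1.04 and 1.06 log2 units. The class II trehalose-phosphate synthase genes TPS11 and TPS10 rose by 2.06 and 1.72, while MIOX2, which breaks down inositol, was lower (-1.61). The median of all 29 tested osmolyte genes, 0.19, turned to -0.09 with the length trend removed.

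Of 10 tested genes of sodium export and storage 5 were higher, 1 was lower and 1 passed 1 log2 unit. NHX1, which moves sodium into the vacuole, read 30.2, 34.6 and 28.2 FPKM at 0 min and 71.6, 70.6 and 72.6 FPKM at 60 min (log2 fold change 1.19, limma adjusted p = 1.06e-08). SOS1, the plasma membrane sodium exporter, read 3.02, 3.54 and 3.45 FPKM and then 3.77, 3.59 and 4.51 FPKM and was not called (limma adjusted p = 0.11), but was higher with upper quartile scaling (0.30, limma adjusted p = 0.02). Its kinase SOS2 and the sodium channel gene HKT1 were not called either (0.05 and 0.06 log2 units), while the calcium sensor SOS3 rose from 2.8 ± 0.223 to 5.88 ± 0.53 FPKM. The proton pumps that energise these exchangers were higher, HA1 by 1.08, AVP1 by 0.60 and HA2 by 0.22 log2 units. With the length trend removed HA2 was lower (-0.25, limma adjusted p = 0.00759), SOS1 was lower (-0.30, limma adjusted p = 0.0215) and the SOS3 call was lost (limma adjusted p = 0.0665). KUP6, a potassium exporter gene regulated by ABA, had the largest rise among the 26 tested ion transport genes, with 5.62, 6.1 and 5.49 FPKM and then 26.7, 27.7 and 26.4 FPKM. SLAH3, an anion channel gene, had the largest fall, with 105, 92.8 and 99.8 FPKM and then 21.2, 23.5 and 21.9 FPKM. Counts were 15 higher, 4 lower and 7 not called, and 10 higher and 7 lower with the length trend removed. Of 28 tested aquaporins, which let water through membranes, 19 were lower and 5 higher (median -0.54, and 0.05 with quantile normalization). PIP1;5 went from 145 ± 21 to 54.5 ± 2.07 FPKM and NIP1;2 from 5.1 ± 0.554 to 12.5 ± 1.45 FPKM.

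Genes of the plant surface rose together. Of 11 tested wax and cutin genes 9 were higher, 1 lower and 1 not called (median 1.46). KCS6 (CER6), which elongates the fatty acids of waxes, read 116, 147 and 137 FPKM at 0 min and 591, 607 and 580.5 FPKM at 60 min. The wax exporter gene ABCG12 read 22, 24.2 and 24.6 FPKM and then 107, 106 and 110.3 FPKM. CER2 and CER1, also enzymes of wax synthesis, rose by 1.90 and 1.56 log2 units, LACS2 of cutin synthesis by 1.49, and the member that went down was KCS1 (-0.73). MYB96, a factor that activates wax genes, rose by 0.39 log2 units. Genes of chlorophyll breakdown and senescence were higher in 6 of 7 tested cases (median 1.00), among them PPH and NYC1, enzymes of that breakdown (1.00 and 1.04). ORE1 (NAC6), a NAC factor of ageing leaves, read 1.9, 1.89 and 1.37 FPKM and then 15.7, 15.3 and 16.9 FPKM, while the late senescence gene SAG12 was listed at 0 in all 6 libraries. Of 12 tested genes that mark energy deprivation 8 were higher and 1 lower: MCCA, which breaks down leucine, rose by 1.63 log2 units, but the classic dark marker genes SEN1 (DIN1) and ASN1 were not called (-0.02 and -0.07); with quantile normalization both were higher (0.77 and 0.58). With the length trend removed ASN1 was lower (-0.31, limma adjusted p = 0.000127) and SEN1 higher (0.30).

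Ubiquitin ligases of ABA and drought were mixed. PUB19 read 3.94, 5.11 and 4.24 FPKM at 0 min and 134, 134 and 134 FPKM at 60 min (log2 fold change 4.64, limma adjusted p = 1.27e-12), and its homologue PUB18 rose by 1.06 log2 units. XERICO, which raises ABA levels when overexpressed, read 12.3, 12.7 and 12.6 FPKM and then 64.2, 60.9 and 61 FPKM. AIRP2, a positive regulator of ABA responses, went from 16 ± 1.54 to 73.8 ± 2.41 FPKM. PUB23 and PUB22, relatives of PUB19, were lower (-2.05 and -0.83), and 8 of 13 were higher and 5 lower. Kinase families added strong single members: MAPKKK18, a kinase activated through ABA, read 3.76, 2.54 and 2.96 FPKM at 0 min and 35.6, 32.1 and 32.1 FPKM at 60 min. Its relative MAPKKK17 read 6.09, 5.36 and 6.43 FPKM and then 34.2, 31.8 and 30.9 FPKM, within counts of 13 higher and 4 lower among 19 tested MAPKKK genes, which became 7 higher and 6 lower with the length trend removed. CIPK25 rose by 2.2 log2 units and CIPK15 fell by 1.40, within counts of 14 higher and 6 lower among 22 tested CIPK genes.

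Touch-induced genes were high at 0 min, when seedlings had been in liquid for 30 min, and low after 60 min in salt. TCH4, an enzyme that remodels xyloglucan, read 819, 898 and 838 FPKM at 0 min and 15.5, 16.6 and 15.3 FPKM at 60 min (log2 fold change -5.66, SE 0.0576, limma adjusted p = 6.44e-14). TCH2, whose promoter is shown above, read 492, 546 and 497 FPKM and then 30.3, 33.1 and 29.4 FPKM, and CML38, a calcium sensor, 211, 223 and 208 FPKM and then 12.9, 14.7 and 13.1 FPKM. In each of these genes every 60 min library was far below every 0 min library. TCH3 fell by 2.16 log2 units, but the calmodulin gene CAM1 was higher by 0.20, a call lost without replicate 2 of the 60 min group (limma adjusted p = 0.0531). Of 11 tested touch-induced genes 9 were lower, 1 higher and 1 not called (median -2.94), and of 12 tested genes with calmodulin-like symbols 10 were lower and none higher. PHI-1 and EXO, cell wall proteins known from phosphate and brassinosteroid responses, fell furthest of all named genes (-6.15 and -6.02). WRKY40, a factor of defence and ABA responses, read 81.7, 77.1 and 82.4 FPKM and then 28.2, 27.6 and 28.7 FPKM. For these genes the move to liquid, the time since then and the salt cannot be told apart.

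Genes of the growing wall went the same way. All 28 tested arabinogalactan proteins, heavily glycosylated proteins of the cell surface, were lower (median -2.28). AGP17 read 266, 299 and 314 FPKM and then 9.93, 12.8 and 8.99 FPKM, and AGP13 161, 210.0 and 198 FPKM and then 17, 14.7 and 13.8 FPKM. Together they made up 0.723% to 0.773% of the summed FPKM of nuclear protein-coding loci at 0 min and 0.2% to 0.217% at 60 min. Of 25 tested XTH genes, which cut and rejoin xyloglucan, 21 were lower and 1 higher (median -1.33). XTR6 read 178, 183 and 191 FPKM and then 6.66, 7.68 and 6.74 FPKM, and the 1 member that rose was XTH20 (2.75 ± 0.214 to 6 ± 0.885 FPKM). Expansins, which loosen the wall, were split, with 7 higher and 9 lower of 19. EXPA10 and EXPA17 rose by 1.70 and 1.2 log2 units, and EXPA18 fell by 1.46.

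Many small auxin-induced genes fell with them. Of 63 tested SAUR genes 41 were lower and 11 higher (median -1.17). SAUR78 (AT1G72430) read 539, 589.9 and 555 FPKM and then 19.3, 19.7 and 17.7 FPKM, and SAUR48 (AT3G09870) read 34.2, 27.1 and 25.4 FPKM and was under 1 FPKM in each 60 min library. Against them SAUR32 (AT2G46690) read 83.5, 96.4 and 85.6 FPKM and then 282, 271 and 269 FPKM. These transcripts are short, and with the length trend removed 36 SAUR genes were lower and 17 higher (median -0.67), and 25 arabinogalactan genes lower and none higher (median -1.73). Of 8 auxin repressor and conjugation genes 5 were lower and 1 higher, with IAA19 from 22.9 ± 2.47 to 7.49 ± 0.642 FPKM. The auxin carriers and response factors were mostly higher by small amounts, 5 of 8, and their median turned from 0.34 to -0.05 with the length trend removed, where 3 were lower and none higher.

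Other hormone pathways showed opposite movements at different steps. Ethylene receptors and signalling genes were all higher, 6 of 6 (median 1.42), and 5 higher and 1 lower with the length trend removed. The receptor gene ERS2 read 1.18, 1.43 and 1.37 FPKM at 0 min and 9.33, 8.95 and 10.5 FPKM at 60 min. ERS1, another receptor gene, read 22.7, 18.9 and 19.2 FPKM and then 74.2, 74.7 and 75.1 FPKM, and neither overlapped. EBF2, which degrades the ethylene factor EIN3, rose by 1.46 log2 units. Ethylene synthesis genes diverged: ACS11 read 23.6, 28.6 and 25.8 FPKM and fell under 1 FPKM in each 60 min library, ACS8 and ACS6 fell by 2.79 and 1.52, whereas ACS2 rose from 0.576 ± 0.182 to 2.65 ± 0.183 FPKM. Of 8 tested ethylene response factors 6 were lower and 1 higher. ERF105 (AT5G51190) read 68.8, 81.8 and 71.1 FPKM and then 4.96, 5.92 and 6.16 FPKM, and ERF11, a repressor, 30.2, 46.6 and 35.2 FPKM and then 5.99, 6.59 and 6.24 FPKM.

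Jasmonate genes had no common direction, with 15 higher and 13 lower of 28. JAZ8 and JAZ7, which encode repressors of the pathway, fell by 5.68 and 3.60 log2 units, and CYP94C1, which inactivates the hormone, read 30.9, 35.4 and 34.1 FPKM and then 3.73, 3.96 and 3.38 FPKM. JAZ12, another repressor gene, read 176, 181 and 169.5 FPKM and then 398, 391 and 375 FPKM. MYC2, the main factor of the pathway, rose by 1.01 log2 units. The synthesis genes also split, with AOC1 and LOX2 higher (1.53 and 1.5) and LOX4 lower (-2.07). AOC1 and AOC2 are close copies, so their reads may have been split. Type A response regulators, which damp cytokinin signalling, were lower in 7 of 8 cases (median -1.33), among them ARR7 with 139, 130.3 and 137 FPKM and then 31.2, 29.6 and 29.7 FPKM and ARR4 with 224, 277 and 238 FPKM and then 74.3, 75.7 and 67.4 FPKM. The cytokinin receptor genes AHK3 and WOL were higher (0.96 and 0.78) and HK2 was lower (-0.23), a call lost with upper quartile scaling (-0.11, limma adjusted p = 0.122).

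Gibberellin receptors GID1B and GID1C rose by 1.45 and 1.25 log2 units, while DELLA repressor genes differed in direction. RGL3, a DELLA gene of stress responses, went from 2.63 ± 0.0919 to 6.34 ± 0.264 FPKM, RGL1 from 8.52 ± 0.847 to 2.73 ± 0.592 FPKM and GAI from 14.2 ± 0.651 to 9.36 ± 0.59 FPKM. GASA6, a gibberellin-induced peptide gene, read 1043, 1176 and 957 FPKM and then 269, 272 and 255 FPKM. Of 15 tested gibberellin genes 4 were higher and 8 lower. Brassinosteroid genes had 4 higher and 4 lower of 12, with the factor genes BES1 and BZR1 lower (-0.86 and -0.75) and the synthesis gene ROT3 higher (1.29); their median of -0.06 changed sign with quantile normalization and upper quartile scaling.

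The clock genes were mostly higher, 8 of 12, with 2 lower. PRR9, PRR7 and PRR5, repressors that act in sequence through the day, rose by 2.84, 1.2 and 1.85 log2 units, and RVE1, which links the clock to auxin, read 12.4, 12.2 and 9.21 FPKM and then 60.8, 58.7 and 63 FPKM. CCA1 went from 72.4 ± 4.27 to 135 ± 0.534 FPKM while its partner LHY fell by 0.20. Whether the groups were harvested at the same time of day is not stated, so clock time and salt cannot be told apart for these genes.

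Redox, mitochondrial, autophagy and splicing factor genes had members called in both directions, with counts that moved with the scaling. Of 11 redox genes 3 were higher and 6 lower: RBOHD, the oxidase of stress signalling, read 15.7, 17.3 and 15.6 FPKM and then 5.95, 5.95 and 6.16 FPKM, and the catalase gene CAT3 rose by 0.80 log2 units. With quantile normalization 5 redox genes were higher and 1 lower, and the median turned from -0.21 to 0.21. Autophagy genes had 5 higher and 6 lower of 12, with ATG18A higher (0.64) and 5 of the 6 tested ATG8 genes lower; with the length trend removed 5 were higher and 1 lower, and with quantile normalization 8 and 1, the median turning from -0.08 to 0.36. The alternative oxidase gene AOX1A rose from 16.9 ± 0.826 to 27.1 ± 2.22 FPKM, and OM66 (BCS1), a mitochondrial stress gene, was lower (-1.06). Among 11 SR splicing factors, which choose splice sites, 4 were higher and 5 lower, with changes of 0.71 and 0.70 log2 units for RS41 and RS40 and -0.94 for RSZ21.

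Photosynthesis genes were prominent among the largest losses in FPKM. Of 43 tested photosystem and antenna genes 34 were lower and 1 higher (median -0.83 beside 0.01 over all loci). These counts were not made with the length trend removed, so its part in them was not tested. The summed share of these genes in the FPKM of nuclear protein-coding loci was 14.2% to 14.9% at 0 min and 10.5% to 11.8% at 60 min. PSBR, a photosystem subunit gene, read 24855, 31451 and 27070.2 FPKM at 0 min and 9719, 9438 and 8946 FPKM at 60 min. PSBX read 10091, 12063 and 10793 FPKM and then 3426, 3722 and 3184 FPKM, and LHB1B2, an antenna gene, 11032, 15097 and 12118 FPKM and then 4706, 4851 and 4251 FPKM. The metallothionein gene MT2B fell less, from 21832 ± 2778 to 12788 ± 1545 FPKM. With quantile normalization the calls of PSBR, LHB1B2, MT2B and RBCS3B were lost (log2 fold changes -1.15, -0.23, -0.13 and -0.38, limma adjusted p = 0.0809, 0.334, 0.874 and 0.37). The MT2B call was also lost without a filter on low values (limma adjusted p = 0.1). The Rubisco small subunit gene RBCS3B read 14185, 17947 and 15456 FPKM and then 5089, 5142 and 4563 FPKM; it is nearly identical to RBCS2B and RBCS1A, and RBCS1A is listed at 0 in all 0 min libraries, so no fold is given for RBCS1A and the values of the other copies are uncertain. Gains were smaller in FPKM: NIA2, a nitrate reductase, read 559, 659 and 581 FPKM and then 1225, 1234 and 1190.0 FPKM, and J8, a chloroplast chaperone, 479.8, 462 and 459.7 FPKM and then 1125, 1101 and 1125 FPKM. The 1991 nuclear protein-coding loci called lower by at least 1 log2 unit held 44.1% to 46.4% of the summed FPKM of all such loci at 0 min and 21.8% to 24.0% at 60 min, which restates the calls in units of transcript. The 966 called higher by at least 1, without RBCS1A, held 1.45% to 1.6% and then 6.03% to 6.93%. Since FPKM are relative to the library total, fewer transcripts per cell and a larger total cannot be told apart.

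Tissue markers differed in how they moved. Of 5 genes of green shoot tissue 4 were lower and 1 higher, LHCB3 by -2.08 and GUN5, a chlorophyll synthesis gene, by 1.45 log2 units; with quantile normalization 2 were higher and 2 lower, and the median moved from -0.57 to -0.10. Of 5 stomatal genes 4 were higher and none lower, the largest change being that of SPCH (0.95), of 5 tested root genes 1 was higher and 2 lower, and of 4 tested genes of dividing cells 1 was higher and none lower. The part of tissue composition in the results was not tested. Of 3 tested seed genes 2 were lower at 60 min: OLEO2 read 14.8, 17.9 and 16.5 FPKM and then 4.15, 5.23 and 2.99 FPKM.

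A small set of genes crossed from below 1 FPKM to at least 10, or back. Below 1 FPKM in each 0 min library and at 10 FPKM or more in each 60 min library were 10 loci, among them HSFA6B, MYB121, MYB305 and HAI2. The count includes RBCS1A, which is listed at 0 in all 0 min libraries. It is nearly identical to RBCS2B and RBCS3B, so its values are uncertain. The reverse held for 9 loci, among them ACS11, DDF2 and RTFL18, a small peptide gene of organ shape with 22.4, 30.5 and 27.8 FPKM and then 0.196, 0.61 and 0.575 FPKM.

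Promoter letters differed along the range of responses. An ABRE core (ACGTG on either strand in the 300 bases before the gene start) stood in 25.6% of 27429 nuclear protein-coding promoters and in 26.2% of the 6044 of genes that rose by less than 1 log2 unit. The share was 37.1% of 817 for rises of 1 to 2, 52.3% of 109 for rises of 2 to 3 and 61.0% of 41 for rises of at least 3. Genes that fell by at least 3 had it in 19.4% of 93 promoters, and the classes of smaller falls in 24.9% to 28.0%. At least 2 matches, counting both strands of a palindrome, stood in 9.93% of all promoters and in 36.6% of those of genes that rose by at least 3. The DRE core (CCGAC) stood in 13.9% of all promoters, 31.2% of those of genes that rose by 2 to 3 and 19.5% of those that rose by at least 3.

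Other letters followed other patterns. The rapid stress response element (CGCGTT), known as a target of calmodulin-binding factors, stood in 3.08% of all promoters. It stood in 4.37%, 7.30% and 10.8% of promoters of genes that fell by 1 to 2, 2 to 3 and at least 3 log2 units, and in 1.84%, 5.50% and 2.44% of those that rose by the same steps, the last 2 being 6 of 109 and 1 of 41. The evening element core (AATATCT), a clock site, stood in 11.8% of all promoters and 22.9% of those of genes that rose by 2 to 3, but in 7.32% (3 of 41) of those that rose by at least 3 and 15.7% of those that fell by 2 to 3. The telo-box (AAACCCT), known from ribosomal and growth genes, stood in 8.51% of all promoters and in 5.14%, 2.75% and 2.44% along the 3 classes of rises from 1 log2 unit. The heat shock element (GAANNTTC) stood in 11.5% of all and in 20.4% and 22.0% of the classes that fell and rose by at least 3. The mean GC content of the classes lay between 30.0% and 32.1%, beside 31.4% for all promoters. The classes at the ends hold few genes, and these shares are a description without a test.

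**Figure D4:**
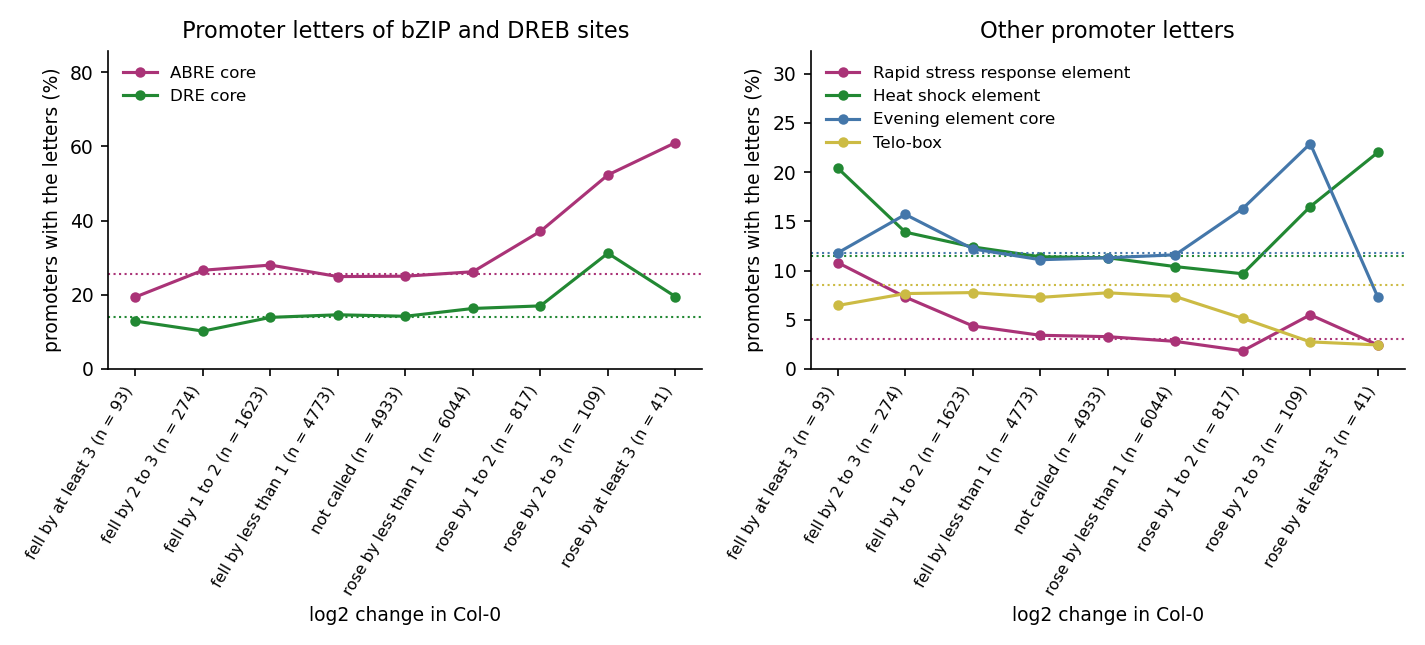
Share of promoters with the letters of 6 motifs in the 300 bases before the gene start (vertical axis, %) in 9 classes of log2 change in Col-0 (horizontal axis, from the strongest falls to the strongest rises, with the number of promoters), with a dotted line at the share among all promoters. The ABRE line stands at 19.4% in the strongest falls and at 24.9% to 28.0% from falls of 2 to 3 through rises under 1. It climbs from there to 61.0% in the strongest rises. The rapid stress response element line is highest, at 10.8%, in the strongest falls.

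Transcript length went along with the response, which bears on every group of short or long genes. In 10 equal classes of 18708 loci by length, the median log2 fold change ran from -0.67 for the shortest transcripts (median 724 nt) to 0.54 for the longest (median 3710 nt), and a fall of at least 1 was called for 32.8% and 1.44% of them. Genes with a single exon had a median of -0.25 and 21.0% of them fell by at least 1, while genes with 9 or more exons had a median of 0.34 and 1.39%. With the length trend removed the medians of these classes were -0.12 and 0.12, and 14.4% and 1.84% of them fell by at least 1. Under that setting the 8 phosphatases stayed higher (median 2.51), the cuticle list kept 9 higher and 1 lower (1.2), and the touch-induced genes 9 lower and 1 higher (-2.80). Genes with RPL or RPS symbols, of which 45 of 54 were lower (median -0.80), had a median of -0.42 under it and of -0.30 with quantile normalization; they were chosen by symbol alone, and not every one encodes a cytosolic ribosomal protein. For 19 histone genes the median went from -0.55 to -0.07, and for 30 ABCG transporter genes it turned from 0.31 to -0.15. The cause of the length trend was not tested.

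**Figure D5:**
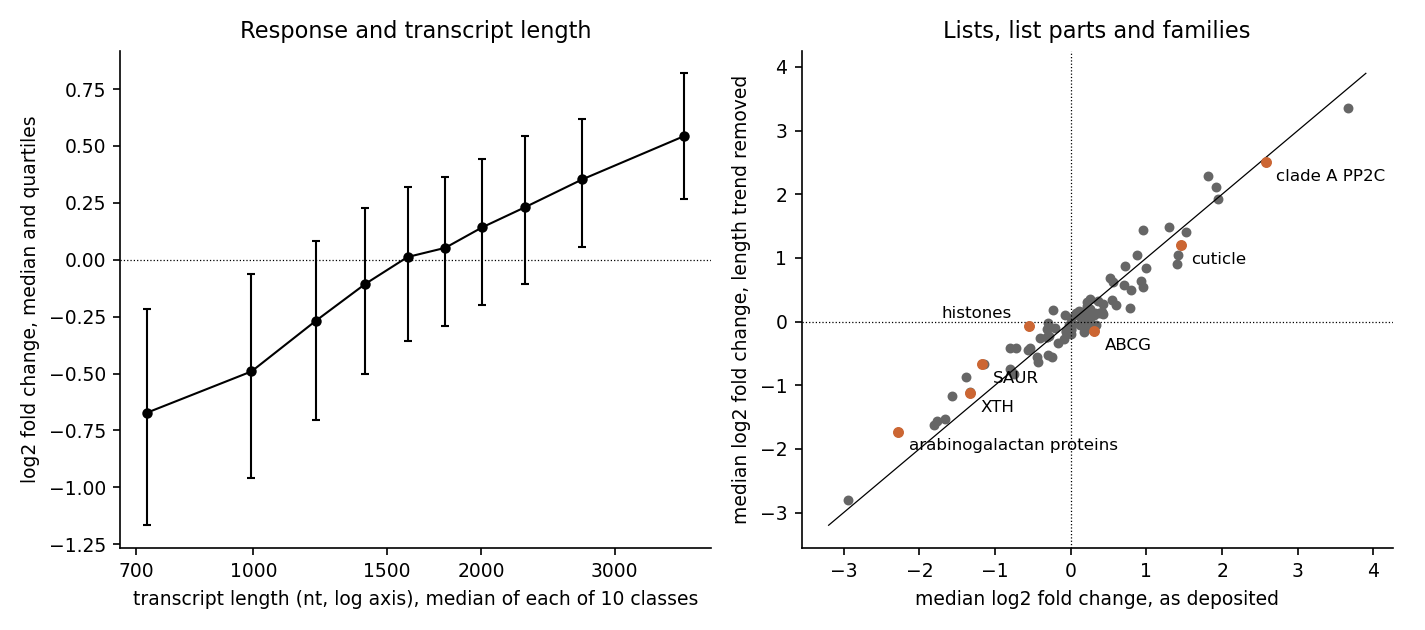
Left, median log2 fold change in Col-0 with bars from the first to the third quartile (vertical axis) against the median transcript length of 10 equal length classes of 18708 nuclear protein-coding loci (horizontal log axis, nt); right, median log2 fold change of each list, list part and family as deposited (horizontal axis) and with the length trend removed (vertical axis), with 7 of them named and a line of equal values. The left curve climbs from -0.67 to 0.54, and on the right histones move to near 0 while the clade A PP2C stay at 2.51.

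The same 60 min in dcp5-1 gave another response at 4850 loci (24.4%) by the test of the difference itself (limma interaction, adjusted p below 0.05), 3248 with a positive and 1602 with a negative difference, dcp5-1 minus Col-0. The share of positive differences was 67.0%, but 49.5% with quantile normalization and 42.2% with upper quartile scaling, so the balance of directions rests on the scaling. HEC1, a factor of tissue patterning, read 2.12, 2.4 and 2.94 FPKM and then 6.24, 7.27 and 5.7 FPKM in Col-0, and 2.37, 2.17 and 2.49 FPKM and then 22.7, 24.1 and 25.4 FPKM in dcp5-1. EARLI1, a cell wall protein gene of cold and defence responses, rose in Col-0 by 0.79 log2 units and in dcp5-1 by 2.74. ABCG19, an ABC transporter gene, rose more in Col-0, with 3.69, 3.35 and 3.76 FPKM and then 37.7, 37.4 and 37.4 FPKM beside 3.99, 4.22 and 4.43 FPKM and then 15.8, 17.8 and 17.1 FPKM in dcp5-1. The differences were 1.82, 1.95 and -1.29 log2 units (limma adjusted p = 2.44e-05, 9.31e-06 and 9.85e-06).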

How the data were processed

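The deposited table holds FPKM per locus for 12 libraries, made by the authors; the submitters' processing notes name Bowtie and the TAIR10 build, while the quantifier, its version and its handling of shared reads are not given there. RNA came from lysates of seedlings, per the labels' protocols. Values were analysed as log2(FPKM + 1) where the 12 libraries averaged 1 FPKM or more. A single limma model (trend, empirical Bayes) with 4 groups of 3 libraries gave the Col-0 contrast and the interaction. Benjamini-Hochberg adjustment covered 19876 loci, the threshold was 0.05, and the model had 8 residual degrees of freedom. It was run on simulated data in which few loci changed, unlike these data. That run therefore does not show how the calls behave here. Tools were R 4.3.3, limma 3.58.1, Python 3.11.15, numpy 2.4.6, pandas 2.3.3 and matplotlib 3.10.9.

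Of the values below 10 reads, 98.4% to 99.1% per library lay within 0.1 read of a whole number, which gave the depth; with FPKM no count test was used. Gene names, lengths, exons and promoters came from the RefSeq annotation of TAIR10.1, in which 37792 loci matched. Members and lists were chosen with earlier results of these data known. Genes were named from the lists (up to 3 with the largest change in each direction, with the members that define a role), from families by symbol (2 per direction), and as the largest rises, falls, gains, losses and interactions; other named genes were chosen after their values were seen. Alternatives covered the pseudocount, the filter, scaling, the length trend (lowess, span 0.3), the replicate block, the 6 Col-0 libraries alone and leaving out each library.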

Additional observations from a re-analysis of the deposited data

Results flagged for a closer look

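The salt response differed between the genotypes, by the limma interaction test over all loci, for the 10 loci given here. They are the 5 with the largest positive and the 5 with the largest negative difference among loci with a symbol called in Col-0. They are thus not the 10 largest differences in size. Each value is the log2 fold change in dcp5-1 minus that in Col-0. OLEO2, which coats oil bodies in seeds, differed by 2.59 (SE 0.194, limma adjusted p = 2.35e-05): it fell in Col-0 and rose in dcp5-1 from 0.753, 0.726 and 0.896 FPKM to 1.94, 2.35 and 2.11 FPKM. EARLI1 and AZI1, neighbouring genes of related proteins, differed by 1.95 and 1.84, and HEC1 by 1.82. AZI1 read 40.8, 53.7 and 51.6 FPKM and then 79.4, 82.8 and 76.9 FPKM in Col-0, and 19, 18.9 and 19.6 FPKM and then 118, 128 and 105 FPKM in dcp5-1.

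On the other side, bHLH071 differed by -1.41 and PRE1, a growth regulator, by -1.31, both with falls that were larger in dcp5-1 (-1.58 and -2.2) than in Col-0 (-0.17 and -0.89). GSTF6, a glutathione transferase gene, differed by -1.30: it rose in Col-0 from 26.5, 30.2 and 31.3 FPKM to 81.1, 77.3 and 76.2 FPKM and read 57, 53 and 55.3 FPKM and then 63, 53.4 and 59.6 FPKM in dcp5-1. ABCG19 differed by -1.29. The microRNA precursor loci MIR167d and MIR863 differed by 2.12 and -1.55. MIR167d read 20.03, 12.2 and 8.03 FPKM and then 0.783, 0.818 and 0.765 FPKM in Col-0, and 1.82, 2.11 and 2.98 FPKM and then 0.817, 0.367 and 1.62 FPKM in dcp5-1. MIR863 read 4.7, 1.13 and 1.02 FPKM and then 11.2, 8.39 and 7.03 FPKM in Col-0, and 4.69, 6.79 and 5.96 FPKM and then 5.06, 7.75 and 7.64 FPKM in dcp5-1. The loci are 377 and 303 bases long, and how far their FPKM follow the precursor was not tested. The fit that gave the depth, made on transcripts over 1000 nt, took 242 to 263.5 nt off each length. If that holds for loci this short, their low FPKM values rest on few reads. The MIR863 difference lost its call in 10 of the alternatives, with adjusted p from 0.0523 to 0.0819.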

How the results depend on the processing

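The Col-0 counts of higher and lower loci stayed within 1.5 times of the reported counts in all 20 alternatives. So did the counts of changes of at least 1 log2 unit, but some came near that limit. The 2132 falls of at least 1 became 1436 with the length trend removed, 1658 with quantile normalization and 1717 with upper quartile scaling. The 1043 rises of at least 1 became 897, 1157 and 1445 under these settings, and 1527 with a pseudocount of 0.1. Leaving out 1 library at a time gave 6826 to 7194 higher and 6724 to 7076 lower loci. Changes of at least 1 then numbered 1002 to 1066 rises and 1971 to 2306 falls. The counts of the difference between genotypes moved more: 3248 positive differences became 2033 with quantile normalization and 2017 with upper quartile scaling, and 1602 negative ones became 2767 with upper quartile scaling. Of differences of at least 1 log2 unit, 121 positive ones became 195 with a pseudocount of 0.1, and 52 negative ones became 108 with that pseudocount and 33 with a minimum of 5 FPKM. The cause was not tested.

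With the replicate number as a block, 7178 loci were higher and 7075 lower in Col-0, and 3117 and 1443 differed between genotypes. Same-numbered libraries correlated in their deviations at r = -0.104 to 0.18, so the numbers were not taken as pairs. Of 198 named genes, 18 lost their Col-0 call or turned in at least 1 alternative, among them RAB18 with quantile normalization (limma adjusted p = 0.433) and LTP3 with the length trend removed (0.984). Directions turned with the length trend removed for SOS1 (-0.30), SCR (-0.13), CBF2 (0.16), HA2 (-0.25) and SEN1 (0.30), and with quantile normalization for ASN1 (0.58) and SEN1 (0.77). SOS1 was called higher with upper quartile scaling (0.30) and ASN1 lower with the length trend removed (-0.31). The small bHLH071 fall in Col-0 lost its call in 13 alternatives, among them the 6 Col-0 libraries alone (limma adjusted p = 0.0714). SNRK2.2 was called without replicate 1 of the 0 min group (limma adjusted p = 0.00828), HSFA2 without replicate 2 of it (0.0434), and SCR lost its call without replicate 2 of the 60 min group (0.051). Depth and 3 libraries per group limit the weakest transcripts.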
